A study of Mus musculus with 4 samples.

Results

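Interferon-stimulated genes are the genes that cells switch on when an interferon binds its receptor. The 37 genes described here were chosen by name, from a list of genes known to respond to interferon, and were found among the array's gene probes by that name or by an older one (Isgf3g for Irf9, D11Lgp2e for Dhx58). Of the 37, 36 had a probe and entered the tests, out of 21392 genes tested, and no probe carried the name of Xaf1. Ifi27 is used as the array design names it, and RefSeq now calls that gene Ifi27l2a.

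Expression was measured on 4 single-colour whole-genome arrays in CD45-negative cells, the stromal and endothelial cells that remain when leukocytes are removed. Wild-type C57BL/6NCrl mice were the source, and the nodes taken were either mesenteric (mLN, draining the gut) or peripheral (pLN). The cells were freed with collagenase and separated with magnetic beads, in 2 experiments with 1 array per node each. No treatment, age or number of pooled animals was given in the sources used here, nor which peripheral nodes were taken, so a p-value here reflects only how far these samples scatter, which may be technical in part. All levels below are log2 signals relative to the 75th percentile of their array, which was 1686 to 1741 in signal units, and values are given for experiment 1 first. Of 41174 probes, 74.0% to 81.1% were well above background on each array.

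Type I interferons act through the receptor chains Ifnar1 and Ifnar2 and the kinases Jak1 and Tyk2, which activate Stat2. Stat2 joins Irf9 in a complex that binds the interferon-stimulated response element, a short motif in the promoters of many of these genes. Interferon gamma uses another receptor, and its response acts through another motif, the gamma-activated site. The products sense foreign nucleic acid, block viral translation and assembly, destroy vacuoles that hold pathogens, and feed back on the pathway, and many are made at a low tonic level in uninfected tissue.

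The comparison asked whether these genes differed between the stromal cells of gut-draining and peripheral nodes. No single member passed the test, yet most had lower values in mLN. The median log2 fold change, mLN over pLN, was −0.36 over the 36 members and −0.03 over all genes tested, with members from −1.01 to 0.36, and 33 of the 36 were negative where 55.7% of all genes were. The mLN value lay below the pLN value in both experiments for 29 of the 36 members, against 34.9% of all genes tested. Both pLN arrays lay above both mLN arrays for 24 members, against 25% of all genes, and the reverse held for 1 member, Oasl2, against 20.6%. By limma with Benjamini-Hochberg adjustment over all genes, 0 of 36 members were called where 1.05% of all genes were, with adjusted p from 0.184 to 0.983. At an unadjusted p below 0.05 there were 10 members, each with the lower value in mLN, against 6.88% of all genes on that side. The median moved to −0.54 without pLN replicate 2, to −0.45 without mLN replicate 1 and to −0.27 without pLN replicate 1. Members are not replicates of a node, and a missed threshold with 2 arrays per node does not show equal levels.

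**Figure D1:**
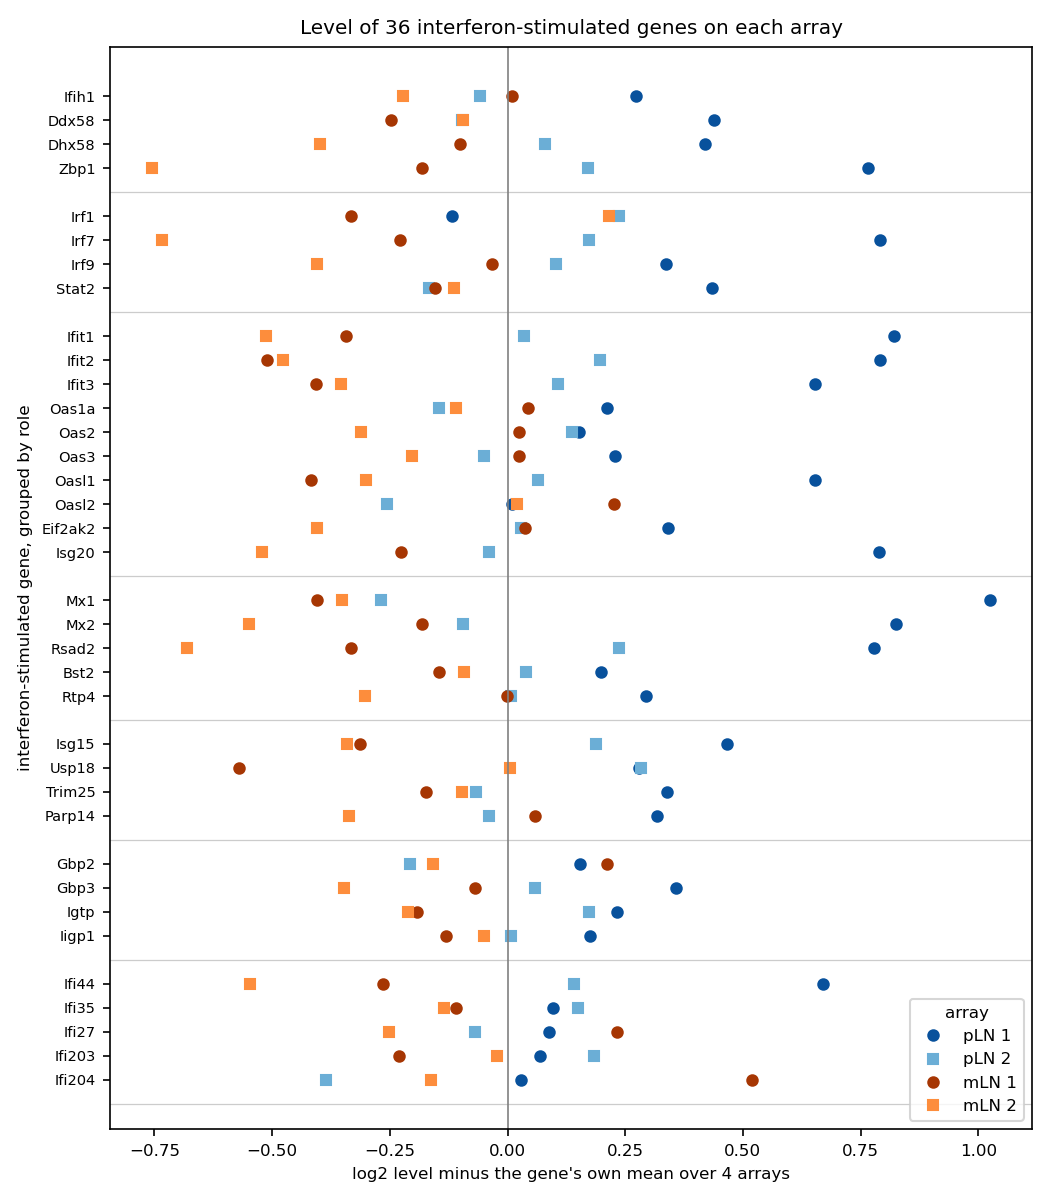
Each row is 1 of the 36 members, grouped by role, and each point is the log2 level on 1 array minus that gene's mean over the 4 arrays, with circles for experiment 1 and squares for experiment 2. The pLN 1 point is the highest of its row for 28 members, and the mLN 2 point is the lowest for 20.

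The promoters of members with a large and a small node difference are shown because both kinds hold the interferon-stimulated response element. It was searched on both strands as 2 copies of GAAA with any 2 bases between them, which read as TTTC copies from the other strand, in the 250 bases before each start in RefSeq's promoters on GRCm38.p6. Of the 37 members, 26 had a promoter in that table, and Mx1, Mx2, Oas2, Usp18, Dhx58, Rtp4, Iigp1, Parp14, Zbp1, Ifi27 and Ifi204 did not. A match was found for 12 of the 26 members, 46.2%, and for 3.46% of all 27025 genes with a promoter. Counted by promoter, it was present in 36.4% of the members' 33 and in 2.98% of all 32851. In the stretches below, which end at the base before the start and run 5′ to 3′ on the gene's strand, capitals mark the matches, and neighbouring matches that overlap form 1 run.
Ifit1, Ifit3, Isg15 and Rsad2 had log2 fold changes from −1.01 to −0.66.
Ifit1, chr19:34640739-34640888, plus strand: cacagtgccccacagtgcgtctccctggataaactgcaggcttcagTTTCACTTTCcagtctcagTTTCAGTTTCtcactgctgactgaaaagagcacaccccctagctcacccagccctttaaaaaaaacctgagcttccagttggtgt
Ifit3, chr19:34583329-34583528, plus strand: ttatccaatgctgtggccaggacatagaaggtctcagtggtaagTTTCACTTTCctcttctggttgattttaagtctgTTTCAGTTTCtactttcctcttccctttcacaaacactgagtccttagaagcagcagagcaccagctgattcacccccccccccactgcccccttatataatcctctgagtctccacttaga
Isg15, chr4:156200819-156200968, minus strand: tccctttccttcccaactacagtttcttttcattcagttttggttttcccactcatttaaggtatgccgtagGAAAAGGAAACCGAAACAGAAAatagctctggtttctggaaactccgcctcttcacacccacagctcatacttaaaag
Rsad2, chr12:26456453-26456602, minus strand: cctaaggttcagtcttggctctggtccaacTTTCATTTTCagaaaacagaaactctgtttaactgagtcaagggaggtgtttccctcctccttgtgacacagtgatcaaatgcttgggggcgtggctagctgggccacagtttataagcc
Bst2, Oas1a and Gbp2 had log2 fold changes from −0.24 to 0.05.
Bst2, chr8:71537473-71537622, minus strand: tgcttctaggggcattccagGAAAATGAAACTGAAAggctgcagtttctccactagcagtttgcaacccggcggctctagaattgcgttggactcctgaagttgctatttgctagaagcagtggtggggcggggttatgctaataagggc
Oas1a, chr5:120907526-120907675, minus strand: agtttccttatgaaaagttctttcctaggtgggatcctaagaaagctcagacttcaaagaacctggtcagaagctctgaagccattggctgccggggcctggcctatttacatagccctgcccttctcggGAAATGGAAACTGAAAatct
Gbp2, chr3:142620513-142620662, plus strand: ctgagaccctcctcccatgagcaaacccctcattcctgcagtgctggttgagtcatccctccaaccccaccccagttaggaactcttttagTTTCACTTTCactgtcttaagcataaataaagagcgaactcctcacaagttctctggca
Isg15 held 3 overlapping matches, Ifit1, Ifit3, Bst2 and Oas1a 2 each, and Rsad2 and Gbp2 1 each. The other members with a match were Stat2, Oas3, Gbp3, Igtp and Ifi203. The median log2 fold change was −0.34 over the 12 members with a match, from −1.01 to 0.05, and −0.37 over the 13 tested members with a promoter but no match, from −0.99 to 0.25. The gamma-activated site, searched as TTCNNNGAA, which is its own reverse complement, matched in 7 of the 26 members, 26.9%, and in 8.13% of all genes, and in 1 member promoter, that of Bst2, it overlapped a response element match. A match is a run of letters and not evidence of binding, and no match says only that these letters are not in this window.

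Among the transcription factors, Irf7, the regulator that amplifies interferon production, showed the widest spread. Irf7 stood at 1.95 and 1.33 in pLN and at 0.93 and 0.43 in mLN, so both mLN arrays lay below both pLN arrays. Its log2 fold change was −0.96 ± 0.30 (SE, n = 2 per node, limma adjusted p = 0.27), a 1.95-fold lower level in mLN, with −1.02 in experiment 1 and −0.91 in experiment 2. Irf9, the DNA-binding part of the interferon-activated complex, stood at 2.64 and 2.41 in pLN and at 2.27 and 1.90 in mLN, again without overlap (−0.44 ± 0.20, adjusted p = 0.435). Stat2, its partner, had its highest value on pLN 1 (−0.36) and stood between −0.95 and −0.90 on the other 3 arrays. On its brighter probe Irf1, an early factor that interferon gamma induces strongly, followed the experiments and not the nodes. It stood there at 3.83 and 4.18 in pLN and at 3.61 and 4.16 in mLN (−0.12 ± 0.26, adjusted p = 0.902). The dimmer Irf1 probe had a node difference of −0.30 without overlap, at 0.760 and 0.993 in pLN and at 0.404 and 0.755 in mLN.

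The sensors bind viral nucleic acid in the cytoplasm. Zbp1, which binds Z-form nucleic acid and can start necroptosis, stood at 0.56 and −0.03 in pLN and at −0.38 and −0.96 in mLN (−0.94 ± 0.31, adjusted p = 0.292). The node difference of Zbp1 was nearly the same in both experiments, −0.95 and −0.93. Dhx58, which encodes the RNA helicase LGP2, stood at −0.06 and −0.40 in pLN and at −0.58 and −0.87 in mLN. Differences between these sensor genes were not tested. Ifih1, which encodes MDA5, stood at 1.53 and 1.20 in pLN and at 1.27 and 1.04 in mLN (−0.21 ± 0.19), and its node values overlapped, while its dimmer probe gave −0.58 and the dimmer probe of Dhx58 −0.17. Ddx58, which encodes RIG-I, had −0.69 in experiment 1 and 0.00 in experiment 2 on its brightest probe. Its other probes lay lower in mLN in both experiments, and its 4 probes gave log2 fold changes from −0.63 to −0.34.

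Among the effectors that act on RNA or translation, the Ifit genes lay lower in mLN without overlap on the probes that stood for them. Their proteins bind foreign RNA ends and block their translation. A dimmer Ifit2 probe stood at −2.51 and −3.34 in pLN and at −2.87 and −5.30 in mLN, with the nodes overlapping. Ifit1 stood at 2.10 and 1.31 in pLN and at 0.94 and 0.77 in mLN (−0.86 ± 0.30, limma adjusted p = 0.318). Isg20, an RNA exonuclease, stood at 3.88 and 3.06 in pLN and at 2.87 and 2.57 in mLN (−0.75 ± 0.33, adjusted p = 0.415). In both genes pLN 1 stood well above the other 3 arrays. Ifit2 (−0.99 ± 0.24, adjusted p = 0.184), Ifit3 (−0.76 ± 0.23) and Oasl1 (−0.72 ± 0.24) had the same non-overlap, and Ifit2 had the smallest adjusted p of the members here, which with the experiment as a block was that of Rsad2 (0.0907). The oligoadenylate synthetases, which make the signal that activates RNase L, were measured too. Oas1a stood at 1.83 and 1.47 in pLN and at 1.66 and 1.5 in mLN (−0.07 ± 0.19, adjusted p = 0.926), with the nodes mixed. Oas2, Oas3 and Oasl2, a synthetase-like gene, had −0.29, −0.18 and 0.25, of which Oas2 and Oas3 turned positive with the normexp background, and the RNA-dependent kinase gene Eif2ak2 had −0.37.

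Of the other antiviral effectors, Rsad2 had the most negative fold change of the 36 members at the reported settings. Rsad2 encodes viperin, a radical enzyme that makes a chain-terminating nucleotide, and stood at 2.34 and 1.79 in pLN and at 1.22 and 0.87 in mLN. Its log2 fold change was −1.01 ± 0.26 (SE, n = 2 per node, limma adjusted p = 0.193), a 2.02-fold lower level in mLN, and its 3 probes gave −1.21 to −1.01. On its brighter probe Mx1, an antiviral GTPase gene, separated 1 array from the rest, at −3.61 on pLN 1 and −4.90 on pLN 2, and at −5.04 and −4.98 in mLN. The node difference there was −1.43 in experiment 1 and −0.08 in experiment 2 (−0.76 ± 0.46, adjusted p = 0.562). The dimmer Mx1 probe did not set pLN 1 apart in this way, at −4.87 and −5.40 in pLN and at −6.28 and −5.90 in mLN. Mx2 likewise had its highest value on pLN 1 and a log2 fold change of −0.73 ± 0.36, and both Mx genes turned positive with the normexp background. C57BL/6 mice carry defective Mx1 and Mx2 alleles, so the signal speaks of transcript and not of protein. Bst2, or tetherin, which holds budding virus at the cell surface, lay within a narrow band at 6.03 and 5.88 in pLN and at 5.69 and 5.75 in mLN (−0.24 ± 0.14, adjusted p = 0.563), and Rtp4 had −0.30 ± 0.19.

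The probe named for Isg15, a ubiquitin-like protein gene, is placed by the files at chr17:45870420-45870479 (mm8), whereas the promoter shown above lies on chromosome 4, so which locus it measures is not settled here. It stood at 4.02 and 3.74 in pLN and at 3.24 and 3.21 in mLN, a difference of −0.66 ± 0.16 (adjusted p = 0.189). Usp18, the protease that removes Isg15 and dampens receptor signalling, stood at 3.01 on both pLN arrays and at 2.16 and 2.73 in mLN (−0.56 ± 0.24, adjusted p = 0.395). Neither gene's nodes overlapped, but the Usp18 arrays of mLN lay apart by 0.58. Trim25, a ubiquitin ligase that activates RIG-I, stood at 2.54 and 2.13 in pLN and at 2.03 and 2.10 in mLN (−0.27 ± 0.19), and Parp14 had −0.28 ± 0.22. The dimmer Parp14 probes gave −0.45 and −1.47, the latter well above background on 3 of the 4 arrays.

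The GTPases of the interferon gamma response, which attack pathogen vacuoles, had a median log2 fold change of −0.29. Gbp3 stood at 2.62 and 2.32 in pLN and at 2.19 and 1.91 in mLN (−0.42 ± 0.19, limma adjusted p = 0.441). Igtp stood at 4.42 and 4.36 in pLN and at 4.00 and 3.98 in mLN (−0.40 ± 0.13, adjusted p = 0.292). These nodes did not overlap, and the arrays of a node lay 0.06 apart or less for Igtp. Iigp1 stood at 5.04 and 4.87 in pLN and at 4.74 and 4.82 in mLN (−0.18 ± 0.15), and Gbp2 had 0.05 ± 0.22.

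Of the remaining members, Ifi44 followed the pattern of the Ifit genes, at 1.83 and 1.30 in pLN and at 0.89 and 0.61 in mLN (−0.81 ± 0.24, adjusted p = 0.25). Ifi35 had the smallest spread of all members, at 3.25 and 3.31 in pLN and at 3.05 and 3.02 in mLN (−0.25 ± 0.13, adjusted p = 0.514). Ifi204, a DNA-binding protein gene of the interferon-inducible cluster on chromosome 1, went the other way, at 2.11 and 1.69 in pLN and at 2.60 and 1.91 in mLN, with the nodes overlapping (0.36 ± 0.30, adjusted p = 0.687). A further Ifi204 probe, whose accessions also name Ifi205 and Ifi211, gave −0.12, and signal from these related genes cannot be separated there. Ifi203 and Ifi27 had −0.25 ± 0.15 and −0.02 ± 0.22. Of the 16 members with several entering probes, 14 had the same sign on all of them, and Ifi204 and Ifi27 did not.

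**Figure D2:**
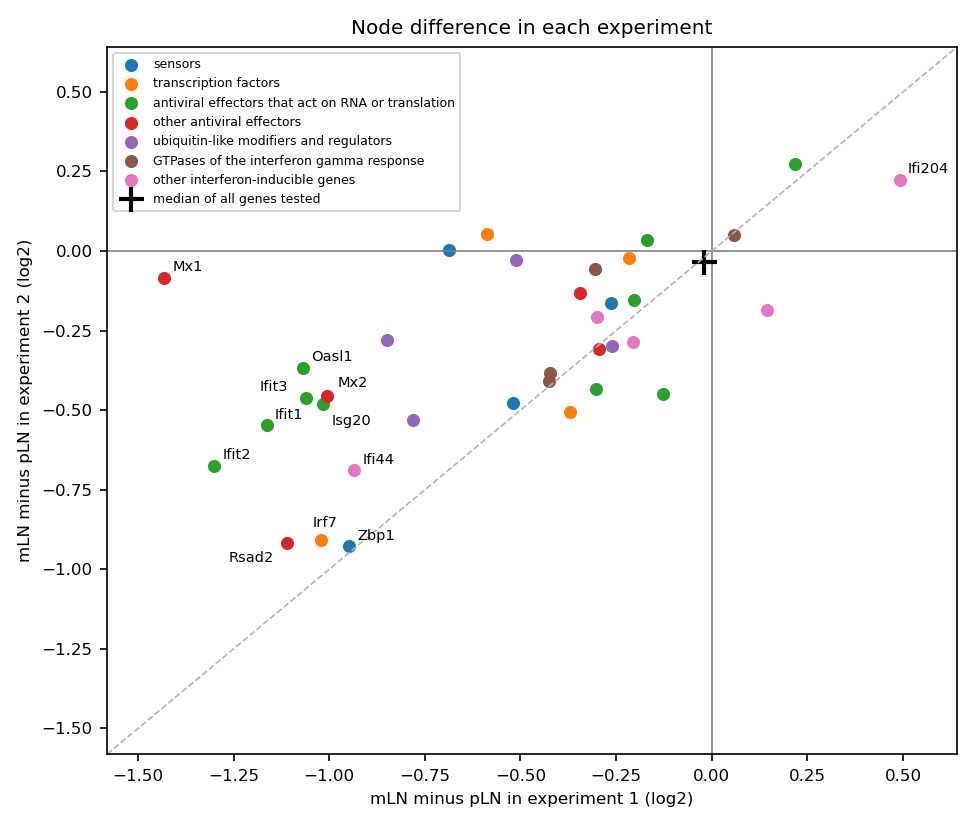
Each point is 1 member, with its log2 difference mLN minus pLN in experiment 1 on the x axis and in experiment 2 on the y axis, coloured by role; the dashed line marks equal values and the cross the median of all genes tested. Of the 36 points, 32 lie left of 0 and 30 below 0, and Zbp1, Irf7 and Rsad2 lie near the dashed line at about the same low value in both experiments.

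The members' median node difference was −0.42 in experiment 1 and −0.30 in experiment 2, where all genes had −0.02 and −0.03. It was negative for 32 members in experiment 1, against 52.3% of all genes, and for 30 in experiment 2, against 54.5%. Each of these ratios rests on 1 array per node. A difference of at least 1.5-fold lower in mLN in both experiments was met by 5 members, Zbp1, Irf7, Ifit2, Rsad2 and Ifi44, and by 4.34% of all genes. The dimmer Ifit2 probe did not meet it. On mm8, the build of the files, the probes that stood for these 5 lie at chr2:172849549-172849608, chr7:141116085-141116435, chr19:34641751-34641810, chr12:27029262-27029321 and chr3:151668457-151668516. Across the 36 members the ratios of the experiments correlated with r = 0.641 (Spearman 0.615), and across all genes with r = 0.713 (Spearman 0.419). These are correlations over genes, which share the same 4 arrays and are not independent.

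The members' levels were also compared across all 4 arrays, and this takes in the node difference given above. Differences between arrays of the same node are given further below. Taking each gene's level minus its own mean over the 4 arrays, the member median was 0.34 on pLN 1, 0.04 on pLN 2, −0.16 on mLN 1 and −0.30 on mLN 2, while for all genes it lay between −0.01 and 0.02. On pLN 1, 35 of the 36 members stood above their own mean, against 50.8% of all genes, and on mLN 2 3 did, against 48.8%. The highest of the 4 arrays was pLN 1 for 28 members, against 26.7% of all genes, and the lowest was mLN 2 for 20, against 30.3%. The full order pLN 1, pLN 2, mLN 1, mLN 2 from high to low held for 14 members, 38.9%, and for 8.3% of all genes. The share of probes well above background was 79.7%, 77.8%, 81.1% and 74.0% on these arrays, highest on mLN 1 and lowest on mLN 2. Its part in the members' order was not tested.

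The highest and lowest arrays lay more than 1 log2 unit apart for 11 members, Zbp1, Irf7, Ifit1, Ifit2, Ifit3, Oasl1, Isg20, Mx1, Mx2, Rsad2 and Ifi44, against 18.6% of all genes. They lay less than 0.5 apart for 12 members, among them Oas1a, Oas2, Oas3, Oasl2, Bst2, Igtp, Iigp1 and Gbp2, against 53.3% of all genes. The median spread was 1.37 for the other antiviral effectors, 0.90 for those that act on RNA or translation and 0.43 for the gamma-response GTPases, and 0.47 over all genes tested.

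Between the experiments, the members' median difference, experiment 2 minus experiment 1, was −0.35 in pLN and −0.22 in mLN, against 0.01 and −0.01 over all genes. The mLN value moved to −0.12 with median scaling and to −0.50 with the normexp background. It was negative for 32 of 36 members in pLN, against 48.2% of all genes, for 24 in mLN, against 51.1%, and for 23 in both nodes, against 28%. Irf7 and Zbp1 had −0.62 and −0.59 in pLN and −0.51 and −0.57 in mLN. Ifit2, Ifit3 and Mx1 had −0.59, −0.55 and −1.29 in pLN and 0.03, 0.05 and 0.05 in mLN. In mLN the dimmer probe of Ifit2 had −2.43 and that of Mx1 0.38. Irf1 and Usp18 went the other way in mLN, with 0.55 and 0.58. Across members the differences of the nodes correlated with r = 0.304 (Spearman 0.219, n = 36 genes), against r = 0.246 over all genes. A limma fit with node and experiment as terms called 0 of 36 members and 0% of all genes for the experiment. At an unadjusted p below 0.05 it took 6 members, against 9.1% of all genes. The members' lowest adjusted p for the experiment was 0.504, for Zbp1.

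**Figure D3:**
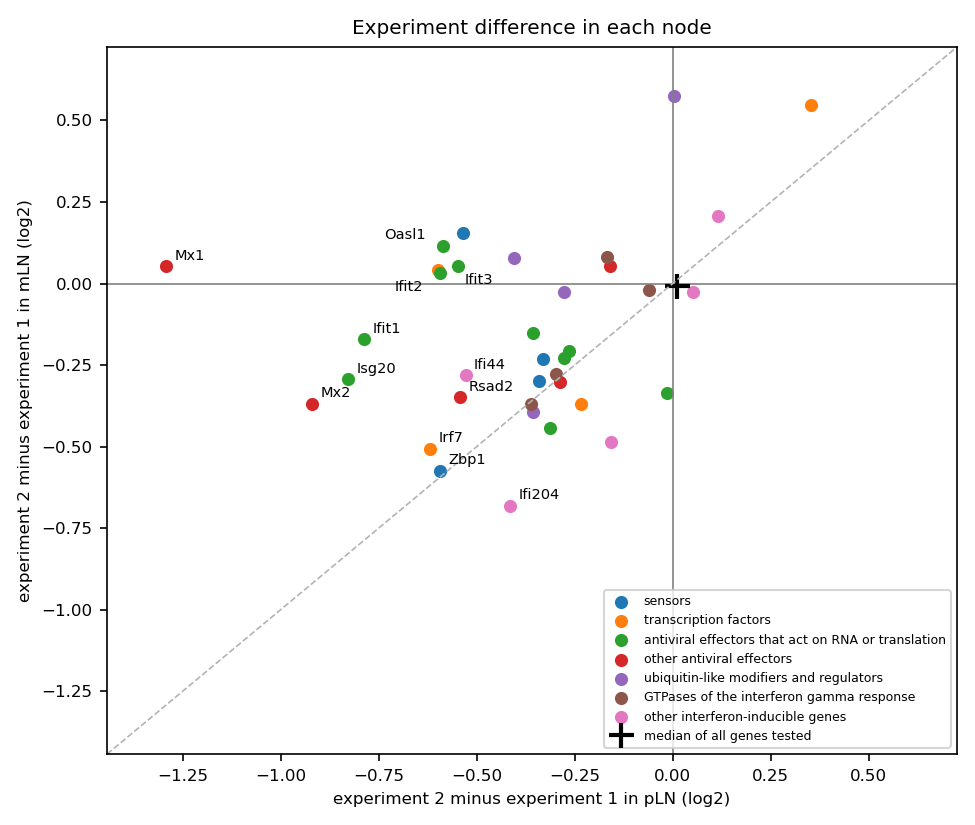
Each point is 1 member, with its log2 difference experiment 2 minus experiment 1 in pLN on the x axis and in mLN on the y axis, coloured by role; the dashed line marks equal values and the cross the median of all genes tested. Most points lie left of 0, as 32 of 36 were negative in pLN, and in mLN 24 of 36 lie below 0.

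Other genes of the pathway were read from lists by role, and none of their members was called for node or experiment by limma. Of 36 further interferon-inducible genes, 31 were tested, with a median log2 fold change of −0.34, and 25 of them lay lower in mLN in both experiments, against 34.9% of all genes. Cxcl11, a chemokine gene, had −1.08 ± 0.52, Cmpk2, a mitochondrial nucleotide kinase gene next to Rsad2, had −0.68 ± 0.21 and Slfn5 had −0.66 ± 0.37 (limma adjusted p from 0.268 to 0.523). The Cxcl11 difference was −2.11 in experiment 1 and −0.05 in experiment 2. At an unadjusted p below 0.05 there were 4 of the 31, Cmpk2, Gbp4, Irgm1 and Tgtp1, all negative, against 6.88% of all genes on that side. The lists of genes that act before or against the response had medians within 0.1 of 0. The interferon ligands, 9 of 17 tested, had a median of 0.01, with Ifna1 at 0.45 ± 0.25, Ifng at −0.20 ± 0.28 and Ifna2 at −0.13 ± 0.17, and Ifna2 was well above background on 1 of 2 mLN arrays. Ifnb1, which encodes interferon beta, had a probe that did not enter the test, as it was not well above background on both arrays of either node. The median was −0.05 for the 10 receptor and kinase genes, with Ifnlr1, the interferon lambda receptor chain, at 0.67 ± 0.35 and Tyk2 at −0.60 ± 0.26. Sensing and induction genes, 14 of 15 tested, had a median of −0.05, with Irf5 at 0.70 ± 0.14, Tlr3 at −0.48 ± 0.25 and Tlr7 at −0.32 ± 0.47. The 7 feedback inhibitors had −0.07, with Socs1 at 0.28 ± 0.19, Ptpn11 at 0.18 ± 0.17 and Socs3 at −0.12 ± 0.49. Adjusted p was 0.141 for Irf5 and higher for the other genes of these lists.

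**Figure D4:**
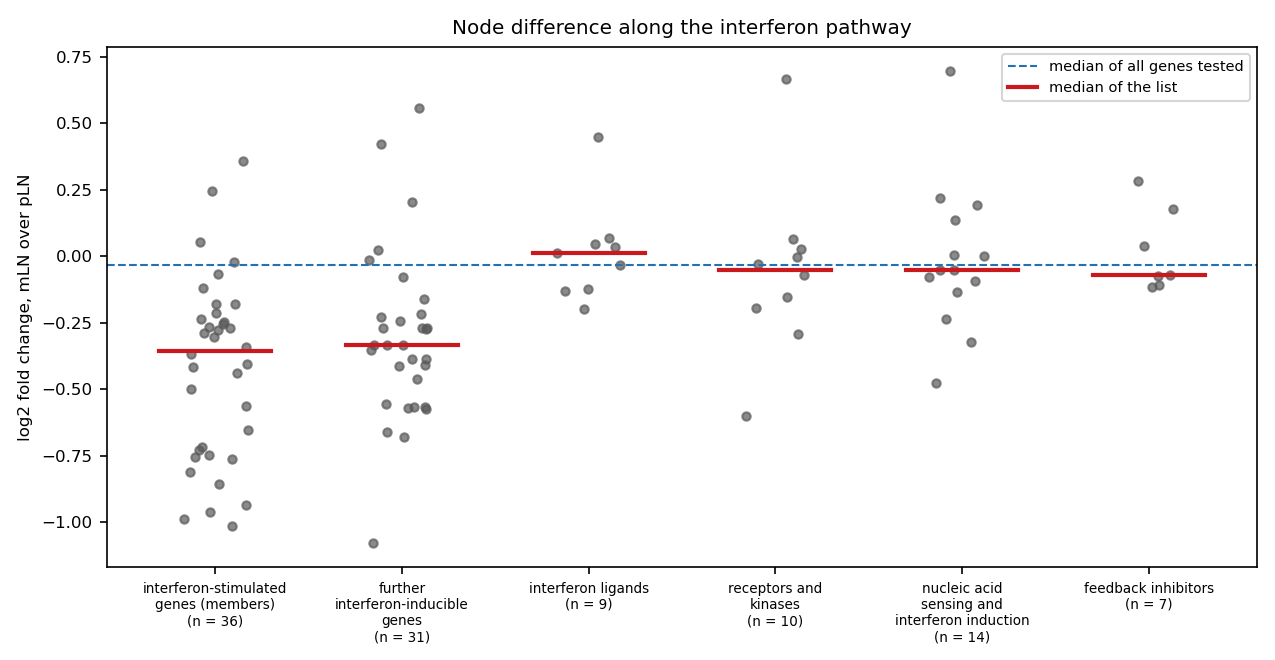
Each point is the log2 fold change, mLN over pLN, of 1 gene, in 6 lists along the x axis; red bars are list medians and the dashed line is the median of all genes tested. The members and the further interferon-inducible genes have medians of −0.36 and −0.34, and the other lists have medians from −0.07 to 0.01.

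Markers of cell types that a node can hold moved beside these values, and their part in the result was not tested. In a bulk sample, fewer cells of a type and less RNA per cell cannot be told apart. All 3 blood endothelial markers, Pecam1, Cdh5 and Kdr, had both pLN arrays above both mLN arrays (−0.67 ± 0.22, −0.55 ± 0.17 and −0.46 ± 0.19, none called). Their summed signal, in multiples of the 75th percentile, was 56.4 on pLN 1, 52.3 on pLN 2, 41.2 on mLN 1 and 35.4 on mLN 2. Of 7 macrophage markers 6 were tested, and 2 were called, Marco (3.28 ± 0.15, limma adjusted p = 0.0108) and Mrc1 (2.05 ± 0.20, adjusted p = 0.0365), both higher in mLN. Mrc1 was no longer called once the experiment was blocked (adjusted p = 0.054). The macrophage sums were 6.08 to 6.58 in pLN and 51.8 to 58.6 in mLN. Marco alone made up 86.1% to 96.8% of them, so these sums follow 1 gene and do not measure the number of macrophages. Adgre1, Csf1r and Cd68 had 0.42, 0.40 and 0.75, and Siglec1 had −1.09 ± 0.55, none of them called and all below the 75th percentile on every array. For plasmacytoid dendritic cells, the main makers of interferon alpha, 4 of 5 markers were tested, with sums of 14.4 to 15.4 in pLN and 12.6 to 16.8 in mLN. Nearly all of these sums came from Tcf4 (−0.31 ± 0.14) and Spib (0.29 ± 0.36), which other cells also express. Ccr9 had 0.81 ± 0.19 with both mLN arrays above both pLN arrays, Pacsin1 had 0.17 ± 0.18, and the defining marker Siglech did not enter the test. The B cell markers, 4 of 4 tested, summed to 3.98 to 5.17 in pLN and 3.0 to 3.92 in mLN. The T cell markers, 5 of 6 tested, summed to 2.94 to 3.09 and 3.15 to 3.74. Cd8a had 1.11 ± 0.18, Cd3d 0.72 ± 0.24, Cd3e 0.30 ± 0.14 and Cd4 0.11 ± 0.14. Only Lck had the other sign, at −0.33 ± 0.14, and none of these T cell markers was called. Ptprc, which encodes CD45, was well above background on all arrays at 0.294 to 0.402 in pLN and 0.343 to 0.374 in mLN. The 6 markers listed for fibroblastic reticular cells, the main stromal cell of a node, summed to 328 to 404 in pLN and 316 to 461 in mLN. Both nodes thus showed the labelled stroma, with ranges that overlapped. Ccl19 made up 46.6% to 60.6% of these sums and Cxcl13 26.6% to 35%. Lymphatic endothelial markers, 3 of 3 tested, summed to 15.8 to 16.7 in pLN and 24.7 to 31.4 in mLN. Lyve1 (1.04 ± 0.17) made up 75.6% to 93.1% of them, and Prox1 (−0.85 ± 0.25) and Flt4 (−0.62 ± 0.37) had the other sign. The 3 mesothelial markers were all called higher in mLN, at 0.0246 to 0.0444 in pLN and 15.5 to 20.7 in mLN. Of the 4 pancreatic acinar markers none was called, but with the experiment as a block Cel (adjusted p = 0.015) and Cpa1 (adjusted p = 0.0187) were. The 4 summed to 5.21 on pLN 1, 0.240 on pLN 2, 367 on mLN 1 and 119 on mLN 2.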

How the data were processed

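The deposited scanner files hold intensity values of a single colour from Agilent Feature Extraction, version 9.5.3.1 in the submitters' processing notes. The authors' software subtracted background and removed spatial and multiplicative trends within each array, per the file headers. The deposited files hold other columns too, flags per spot for background, saturation and outliers. A deposited value table, used as an alternative, held the same intensity times 1 factor per array (0.862 to 0.89) with a floor of 15, on a linear scale and uncentred, with column medians of 161 to 172.

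Control and outlier-flagged spots were left out. Spots of the same probe were averaged, and levels are log2 values minus the 75th percentile of the array. Probes were kept if flagged well above background on each array of 1 node or of both (31883 of 41174), and the kept probe with the highest mean stood for its gene. Of the members' 60 probes 59 were kept, and no probe that stood for a member was saturated. Probes were named from the files and from RefSeq genes on GRCm38 by accession (24375), symbol (6301) or synonym (2426), and 8072 kept the files' name.

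Differences were tested in R 4.3.3 with limma 3.58.1 (lmFit, eBayes, two-sided, Benjamini-Hochberg over all genes, threshold 0.05), after a test on simulated data. Degrees of freedom were 2.35 for the prior and 4.35 in total. Errors after ± are standard errors. The smallest p from an exact permutation of 2 against 2 arrays is 0.333. Experiment numbers come from the labels and mark a shared experiment. Deviations of same-numbered arrays correlated with r = 0.246 across genes, and a fit with the experiment as a block was added. The headers give 4 different barcodes and 1 scan time for the 4 arrays, so no barcode held several arrays and neither could be fitted as a batch. Alternatives changed the signal source, background, filter, scaling, probe choice, variance prior, block and arrays.

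The members, the lists and the rule for named genes (in each role the 2 members with the widest spread between arrays and the 1 with the smallest, and in each pathway list the 3 largest absolute fold changes) were chosen with earlier results of these data known. A result that this rule would name in the receptor and kinase list is not reported here. Members outside that rule are named with fewer values, some after their values were seen.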

Additional observations from a re-analysis of the deposited data

How the results depend on the processing

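No member was called in any of the 13 alternative settings of the node comparison, where the members' lowest adjusted p by limma ran from 0.0866 to 0.689, nor for the experiment. With the replicate block 333 genes were called and 0 members, and the block changed no member's call. The count of all genes called between nodes was 225, and 0 with the normexp background, 44 with no filter on dim probes, 354 with median scaling and 441 with an intensity trend in the variance. It was 0 to 190 with 1 array left out, and 0 without either pLN array. For the experiment it was 44 with an intensity trend.

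The members' median log2 fold change was −0.53 with normexp, which moved the median of all genes to 0.38, and −0.54 to −0.27 with 1 array left out. The median difference between experiments in mLN was −0.50 with normexp and −0.12 with median scaling. Negative members numbered 30 to 33 in the node settings.

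Signs turned for few members. With normexp, Oas2 had 0.61, Oas3 0.43, Mx1 0.96, Mx2 0.54 and Gbp2 −0.25. With 1 array left out, Irf1 ran from −0.39 to 0.16, Stat2 from −0.57 to 0.032, Oas1a from −0.25 to 0.11, Gbp2 from −0.13 to 0.24 and Ifi27 from −0.26 to 0.22. The cause was not tested. Only 2 arrays per node limit the precision.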
